A study of Mus musculus with 3 samples.

Results

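The enzymes that remove superoxide and peroxides were followed in mouse liver through 10 genes, chosen by name as the main members of 4 families: the superoxide dismutases Sod1 and Sod2, the catalase Cat, the glutathione peroxidases Gpx1 and Gpx4, and the peroxiredoxins Prdx1, Prdx2, Prdx3, Prdx5 and Prdx6. Each symbol was found once among the 23850 rows of the deposited expression tables, with an estimate in every library. RNA depleted of ribosomal RNA was sequenced from 3 livers or pools of livers, since the labels do not say how many animals a library holds, nor their sex. The groups were Ercc1 delta/- mice under diet restriction (Ercc1 DR), Ercc1 delta/- mice fed ad libitum (Ercc1 AL) and wildtype mice fed ad libitum (wt AL), all aged 16 weeks and on a C57BL6J/FVB background. Both mutant groups lack normal Ercc1 function in every tissue and not in liver alone, with a null allele and an allele for a truncated protein, and no wildtype mice under diet restriction were among the libraries analysed here. Since each group is a single library, the spread between animals is unknown, and differences are given as values without a test.

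Superoxide leaks from the respiratory chain and from oxidases, and superoxide dismutases turn it into hydrogen peroxide. SOD1 does so in the cytosol and SOD2 in the mitochondrial matrix. Hydrogen peroxide is then removed by catalase, mostly in peroxisomes, which are abundant in hepatocytes, by glutathione peroxidases, which spend glutathione, and by peroxiredoxins, which are mostly recharged by thioredoxin. NADPH pays for the glutathione and the thioredoxin route, whereas catalase needs no reducing partner.

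Levels are given in FPKM, the fragments of a gene divided by transcript length in kilobases and by mapped fragments in M, so that they can be compared between genes. Each comes with a deposited interval, which reflects how fragments were counted and assigned within that library and says nothing of how animals differ. The intervals imply 25.03 M fragments in Ercc1 DR, 25.1 M in Ercc1 AL and 19.0 M in wt AL, if each bound is taken as 2 SD from the midpoint. Ercc1 itself was at 0.475 FPKM in Ercc1 DR, 0.573 FPKM in Ercc1 AL and 0.461 FPKM in wt AL, which does not tell the genotypes apart. The liver label was checked with 8 hepatocyte markers, of which 7 had an estimate and summed to 5833 FPKM in Ercc1 DR, 2792 FPKM in Ercc1 AL and 2328 FPKM in wt AL, while albumin had no estimate in any library. Most of each sum was Ttr (2062, 781 and 978 FPKM in that order), Apoa1 (1767, 1100 and 665 FPKM) and Cps1 (1146, 299 and 182 FPKM). Serpina1a was lowest in Ercc1 DR, at 192, 281 and 281 FPKM. All marker sums are of FPKM as deposited. Markers of macrophages (8 genes) summed to 14.1, 21.0 and 16.4 FPKM in that order, of endothelial cells (7 genes) to 12.6, 21.5 and 28.4 FPKM, of stellate cells (6 genes) to 37.2, 32.3 and 19.6 FPKM (of which Dcn alone was 30.8, 24.5 and 13.5 FPKM), of neutrophils (6 genes found) to 3.24, 6.50 and 8.58 FPKM, and of bile duct cells (5 genes) to 4.78, 4.44 and 6.52 FPKM. In such bulk tissue fewer cells of a type and less RNA per cell cannot be told apart.

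The sequence around the catalytic residue shows how the peroxidases differ in chemistry. The glutathione peroxidases GPX1 and GPX4 use selenocysteine, which is read from a codon that otherwise ends a protein, and a peroxiredoxin uses an ordinary cysteine. A script found this codon in each coding sequence of the reference annotation (GENCODE transcripts, GRCm38), and it stands in capitals in the middle of 27 coding bases, printed 5′ to 3′.
Gpx1: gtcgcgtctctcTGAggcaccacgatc
Gpx4: gtggcctcgcaaTGAggcaaaactgac
Prdx1: tttacttttgtgTGTcccacggagatc
Prdx2: ttcacttttgttTGCcccacggagatc
Prdx3: ttcacatttgtgTGTcctacagaaatt
Prdx5: tttacacctggcTGTtctaagacccac
Prdx6: tttaccccagtgTGCaccacagaactt
The TGA is codon 47 of Gpx1 (chr9:108339439-108339465, plus strand) and codon 73 of Gpx4 (chr10:80054725-80054751, plus strand). The cysteine is codon 52 of Prdx1 (chr4:116691811-116691837, plus strand), 51 of Prdx2 (chr8:84970471-84970497, plus strand) and 47 of Prdx6 (chr1:161247356-161247382, minus strand). In Prdx3 (codon 109) and Prdx5 (codon 96), both on chromosome 19, the stretch runs across the border of 2 exons. Gpx1 and Gpx4 thus depend on the selenocysteine machinery described further on, and the peroxiredoxins do not.

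Among the dismutases, the cytosolic Sod1 (chr16:90220742-90226324 on mm10) was far above the mitochondrial Sod2 (chr17:13007839-13018119). Sod1 was at 289.5 FPKM in Ercc1 DR, 181 FPKM in Ercc1 AL and 161 FPKM in wt AL, with deposited intervals of 197 to 207, 123 to 129.8 and 109 to 117 FPKM. As deposited, the restricted mutant stood apart at the top, and the FPKM itself lay above its interval in every library. After the rescaling described below, the Sod1 intervals of Ercc1 DR and wt AL overlapped. Sod2 was at 28.8 FPKM in Ercc1 DR (26.8 to 28.2), 17.4 FPKM in Ercc1 AL (16.1 to 17.3) and 14.0 FPKM in wt AL (13.0 to 14.0), in the same order of libraries. The ratio of Sod1 to Sod2 was 10.1 in Ercc1 DR, 10.4 in Ercc1 AL and 11.5 in wt AL, close to one another. Its intervals were 6.97 to 7.70, 7.10 to 8.05 and 7.76 to 9.02 in that order, each below the ratio of the FPKM. The interval of this ratio in Ercc1 DR lay below that in wt AL and overlapped that in Ercc1 AL.

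Catalase (Cat, chr2:103453904-103485153) was the only 1 of the 10 genes that was highest in the freely fed mutant. Its level was 152 FPKM in Ercc1 DR (138.8 to 142.9), 198 FPKM in Ercc1 AL (181 to 185) and 147 FPKM in wt AL (134 to 139). The other 9 genes were highest in Ercc1 DR and lowest in wt AL, with Ercc1 AL between them. This order of deposited values also follows the general level of the libraries, which is dealt with below.

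The cytosolic glutathione peroxidase Gpx1 (chr9:108339080-108340344) was the most abundant of the 10 in all 3 libraries. It reached 431 FPKM in Ercc1 DR (345 to 356), 379 FPKM in Ercc1 AL (304 to 313) and 261 FPKM in wt AL (208 to 217), and it ranked 62nd of 22985 genes with an estimate in Ercc1 DR, 53rd of 22958 in Ercc1 AL and 71st of 22983 in wt AL. Gpx4 (chr10:80053510-80056439), which reduces lipid hydroperoxides within membranes, was at 31.8 FPKM in Ercc1 DR (30.3 to 33.6), 25.1 FPKM in Ercc1 AL (23.8 to 26.5) and 16.6 FPKM in wt AL (15.4 to 17.7). Its FPKM lay inside its interval throughout. Copies by name are annotated for Gpx4 (Gpx4-ps2), Prdx2 (Prdx2-rs3) and Prdx6 (Prdx6-ps2 and Prdx6b), and the sources used here do not say how fragments shared with them were counted, so the levels of these 3 genes are uncertain to that extent.

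The peroxiredoxins spanned more than a factor of 10 in level. Prdx1 (chr4:116685599-116700000), the main cytosolic peroxiredoxin, was at 193 FPKM in Ercc1 DR (192.5 to 199), 139 FPKM in Ercc1 AL (138 to 144) and 94.1 FPKM in wt AL (92.3 to 97.5). Prdx6 (chr1:161240112-161251166), which has a single catalytic cysteine and is recharged by glutathione, was at 69.8 FPKM in Ercc1 DR (62.9 to 65.9), 60.1 FPKM in Ercc1 AL (54.2 to 56.7) and 36.5 FPKM in wt AL (32.7 to 35.1). Between the mutants the ratio of Ercc1 DR to Ercc1 AL as deposited was 1.16 for Prdx6 and 1.39 for Prdx1. After the rescaling described below the log2 ratios were -0.12 for Prdx6 and 0.14 for Prdx1, similar in size and opposite in sign.

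Prdx3 (chr19:60864066-60874538), the peroxiredoxin of the mitochondrial matrix, differed most between libraries. It was at 29.3 FPKM in Ercc1 DR (24.6 to 26.8), 14.5 FPKM in Ercc1 AL (12.0 to 13.6) and 7.78 FPKM in wt AL (6.33 to 7.73), so that the intervals of the 3 libraries were wide apart. Its rank among all genes was 952nd in Ercc1 DR, 1300th in Ercc1 AL and 1788th in wt AL. Prdx5 (chr19:6906819-6909645), found in mitochondria, peroxisomes and cytosol, was at 33.4 FPKM in Ercc1 DR (22.6 to 25.7), 21.8 FPKM in Ercc1 AL (14.7 to 17.3) and 15.5 FPKM in wt AL (10.3 to 12.6). It shares 409 exonic bases, 19.1% of its own, with Trmt112 on the other strand, which was at 12.0, 14.0 and 9.07 FPKM in that order, and without strand information reads of the pair cannot be told apart.

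Prdx2 (chr8:84969648-84974313), known for its abundance in red blood cells, was the lowest or next to lowest of the 10. It was at 18.0 FPKM in Ercc1 DR (13.5 to 15.7), 12.5 FPKM in Ercc1 AL (9.32 to 11.0) and 9.86 FPKM in wt AL (7.26 to 8.91). Erythroid markers took another order, and the 7 found of 11 listed summed to 169 FPKM in Ercc1 DR, 109 FPKM in Ercc1 AL and 175 FPKM in wt AL, mostly Hba-a2 at 151, 72.3 and 145 FPKM, with Hba-a1 at or near 0 in Ercc1 DR. Between the mutants other markers ran against Hba-a2 and were lower in Ercc1 DR, with Alas2 at 2.50 FPKM against 14.8 FPKM in Ercc1 AL, Hbb-b1 at 1.80 against 4.73 FPKM and Hbb-b2 at 13.3 against 16.4 FPKM. Their part in the Prdx2 values was not tested. Prdx2 also shares 173 exonic bases with Junb and 177 with Rnaseh2a on the other strand, 5.67% and 5.80% of its own.

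**Figure D1:**
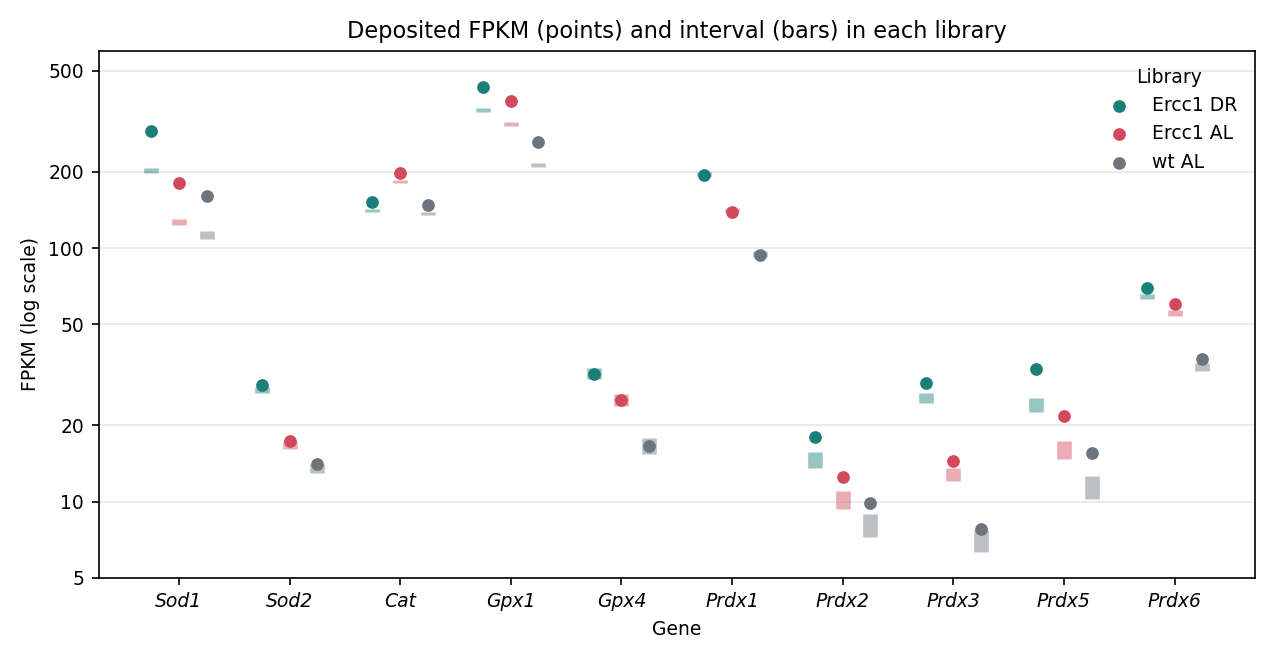
FPKM of the 10 genes (log axis) in Ercc1 DR, Ercc1 AL and wt AL, 1 library each; points are the deposited FPKM and bars the deposited interval, which covers counting in 1 library. In 9 of the 10 genes Ercc1 DR is highest and wt AL lowest, and in Cat the highest point, 198 FPKM, is Ercc1 AL.

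The deposited FPKM lay inside its own interval in 7 of 30 values and above it in 23, with 7 of the 10 genes never inside. The midpoint of the interval was between 0.697 and 0.702 times the FPKM for Sod1 in the 3 libraries and between 1.009 and 1.014 times for Prdx1, so the offset belonged to the gene and hardly to the library. Ratios between libraries therefore barely depend on the choice, and the order of genes within a library does. By the midpoint, neighbours in the order with overlapping intervals were Sod1 and Prdx1 as well as Prdx3 and Prdx5 in Ercc1 DR, Sod2 and Prdx5 in Ercc1 AL, and Prdx2 and Prdx3 in wt AL. By the FPKM, Sod1 came 2nd in Ercc1 DR, 3rd in Ercc1 AL and 2nd in wt AL, and Cat came 4th, 2nd and 3rd.

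Gpx1, Sod1, Cat and Prdx1 made up most of the summed FPKM of the 10 genes, 83.5% of 1277 FPKM in Ercc1 DR, 85.6% of 1049 FPKM in Ercc1 AL and 86.9% of 763 FPKM in wt AL. The share of Gpx1 varied little, at 33.8% in Ercc1 DR, 36.2% in Ercc1 AL and 34.2% in wt AL. The share of Cat was 11.9% in Ercc1 DR, 18.9% in Ercc1 AL and 19.3% in wt AL, the lowest by far under diet restriction. Prdx1 held 15.1%, 13.3% and 12.3% in the same order, and Prdx3 2.30%, 1.38% and 1.02%. These shares need no scaling between libraries.

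**Figure D2:**
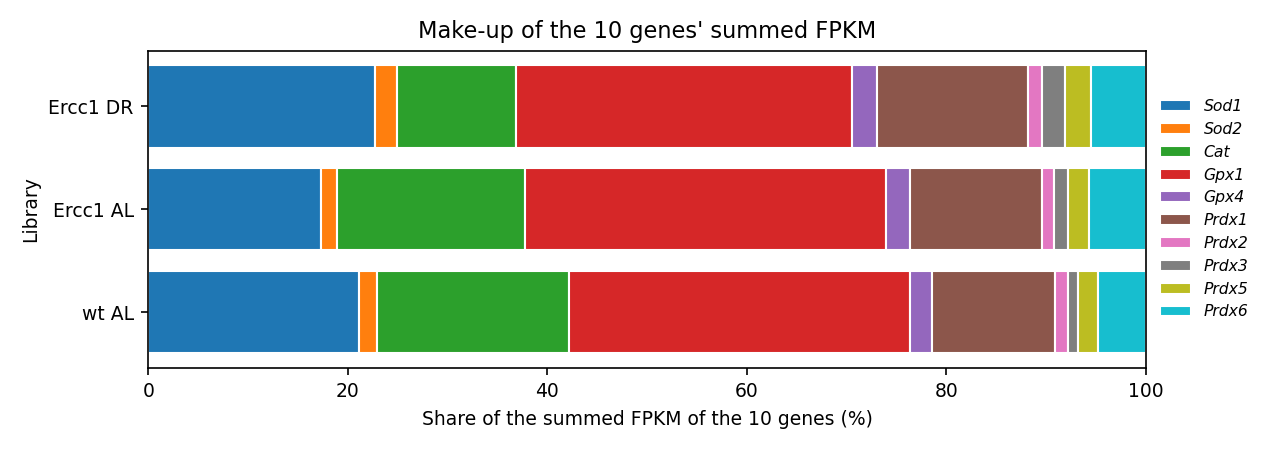
Share of each gene in the summed FPKM of the 10 genes (horizontal axis, %), with Ercc1 DR at the top, Ercc1 AL in the middle and wt AL at the bottom. The Cat segment is 11.9% in Ercc1 DR, 18.9% in Ercc1 AL and 19.3% in wt AL.

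Ratios of 1 gene to another within a library also need no scaling, and among the 45 pairs the interval of the ratio in Ercc1 DR lay apart from that in Ercc1 AL in 31, or 68.9%, against 75.9% of all pairs of genes in the same range of mean FPKM. For Ercc1 DR and wt AL it did so in 24 pairs, or 53.3%, against 77.5%, and for Ercc1 AL and wt AL in 19, or 42.2%, against 60.2%. In each comparison the share was below that of gene pairs at large. Cat was 5.18 times Prdx3 in Ercc1 DR, 13.6 times in Ercc1 AL and 18.9 times in wt AL, the pair that moved most in both comparisons of Ercc1 DR. Cat was 0.79 times Prdx1 in Ercc1 DR, 1.42 times in Ercc1 AL and 1.57 times in wt AL, so the peroxisomal enzyme's transcript was below that of the cytosolic peroxiredoxin in the restricted mutant alone of these 3 libraries. Sod1 was 1.91 times Cat in Ercc1 DR, 0.92 times in Ercc1 AL and 1.09 times in wt AL. By the interval midpoints Sod1 exceeded Cat in Ercc1 DR and was below it in Ercc1 AL and wt AL. Within the peroxiredoxins, Prdx2 was 0.61 times Prdx3 in Ercc1 DR, 0.86 times in Ercc1 AL and 1.27 times in wt AL.

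The libraries differ in their general level. Over 9109 genes that reached 1 FPKM in every library, the median log2 ratio as deposited was 0.33 for Ercc1 DR over Ercc1 AL, 0.49 for Ercc1 AL over wt AL and 0.78 for Ercc1 DR over wt AL. Log2 ratios below are of FPKM + 1 after rescaling to a median of 0 over these genes unless called as deposited, and the 3 comparisons share libraries, so that they are no independent views of the same gene. A gene is counted as higher or lower when it differs at least 2-fold after rescaling. The share of all genes with at least 1 FPKM in either library that pass the same mark is the background for each count.

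In the mutant under diet restriction Prdx3 stood at the high end of the 10 genes and Cat at the low end. A change of scaling moves all genes alike, so it could hardly alter this order and is no test of it. As deposited, 9 of 10 genes were higher in Ercc1 DR than in Ercc1 AL, all but Cat, against 61.0% of all genes. After rescaling none of the 10 was at least 2-fold higher and none at least 2-fold lower, against 3.12% and 12.0% of 12361 genes. Prdx3 was at 0.65 (2.02-fold as deposited), above 92.1% of all genes or level with them. Sod2 was at 0.38, Sod1 at 0.34, Prdx5 at 0.27, Prdx2 at 0.19 and Prdx1 at 0.14, all above 0 under each scaling tried.

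Cat was at -0.71 in that comparison, or -0.38 as deposited, and between -0.78 and -0.71 under the other rescalings except that without a floor on low values, where it turned to 0.06. Gpx1 was at -0.15 and Prdx6 at -0.12, both of which were above 0 as deposited (0.18 and 0.21) and without a floor. Gpx4 was at 0.01, with -0.06 under the median over official symbols. With the deposited intervals rescaled in the same way, those of Ercc1 DR were apart from and above those of Ercc1 AL in 5 genes (Sod1, Sod2, Prdx1, Prdx3 and Prdx5), against 50.6% of the 1680 genes in the same range of mean FPKM. They were apart and below in 3 genes (Cat, Gpx1 and Prdx6), against 31.1%. The median of the 10 genes was 0.16, beside -0.06 for all genes and 0.16 for genes in the same range of mean FPKM. In the same comparison 6 of the 7 hepatocyte markers with an estimate were above 0. Below 0 were 6 of the 7 endothelial, 6 of 6 measured macrophage and 3 of 3 measured stellate markers. So were 3 of 4 measured erythroid, 2 of 2 neutrophil and 1 of 2 bile duct markers. Of the stellate markers, Dcn was at -0.003 and Lrat at -0.07. As background, 55.7% of all genes lay at or below the 0.01 of Gpx4. The part of these markers in the ratios was not tested.

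Between the freely fed mutant and the wildtype the log2 ratios of these genes lay between -0.32 and 0.37 after rescaling. All genes also spread least in this comparison. As deposited all 10 were higher in Ercc1 AL than in wt AL, against 81.0% of all genes. After rescaling none was at least 2-fold higher and none at least 2-fold lower, against 2.35% and 4.90% of 12359 genes. Prdx3 was at 0.37 and Prdx6 at 0.22, above 0 under each scaling tried, followed by Gpx4 at 0.10, Prdx1 at 0.07, Gpx1 at 0.05 and Prdx5 at 0.00. Sod1 was at -0.32 and Sod2 at -0.17, below 0 under each rescaling and at 0.17 and 0.29 as deposited. Prdx2 at -0.14 and Cat at -0.07 were above 0 as deposited (0.31 and 0.42) and when libraries were scaled by their sums (0.01 and 0.10).

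The rescaled intervals of Ercc1 AL and wt AL were apart with the mutant higher in 3 genes (Prdx1, Prdx3 and Prdx6), against 36.4% of 1674 genes in the same range of mean FPKM. They were apart with the mutant lower in 3 genes (Sod1, Sod2 and Cat), against 31.8%. The median of the 10 was 0.02, beside 0.01 for all genes, and 7 of the 10 lay between the lower and upper quartile of all genes, at -0.25 and 0.22. Between the quartiles of their own comparison lay 8 of the 10 in Ercc1 DR over wt AL and 5 in Ercc1 DR over Ercc1 AL. By this count the freely fed mutant was thus no closer to the wildtype than the restricted mutant, relative to the spread of all genes.

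Set against the wildtype, the restricted mutant had 1 gene at least 2-fold higher after rescaling, Prdx3 at 1.06, and none at least 2-fold lower, against 6.02% and 16.4% of 12127 genes. Prdx3 dropped below the 2-fold mark when the rescaling used official symbols only, at 0.98. As deposited it was 3.77-fold higher, and all 10 genes were higher in Ercc1 DR than in wt AL, against 72.2% of all genes. Prdx5 was at 0.31, Prdx1 at 0.26, Sod2 at 0.24, Gpx4 and Prdx6 both at 0.15 and Prdx2 at 0.08, each above 0 under every scaling tried. Sod1 was at 0.07 and turned to -0.02 under the median over official symbols.

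Cat was at -0.73 in Ercc1 DR over wt AL, yet at 0.05 as deposited and 0.01 without a floor, a level 1.03 times that of wt AL as deposited. Gpx1 was at -0.06, against 0.72 as deposited and 0.68 without a floor. Intervals were apart with Ercc1 DR higher in 5 genes (Sod2, Prdx1, Prdx3, Prdx5 and Prdx6), against 50.4% of 1689 genes in the same range of mean FPKM, and lower in 2 (Cat and Gpx1), against 30.9%. The median of the 10 was 0.15, beside -0.03 for all genes and 0.24 in the same range of mean FPKM. The 10 genes ranged over 1.79 on the log2 scale here, against 1.36 in Ercc1 DR over Ercc1 AL and 0.69 in Ercc1 AL over wt AL. All genes spread in the same order of comparisons, with quartiles at -0.64 and 0.39, at -0.54 and 0.26, and at -0.25 and 0.22. The wider range is thus not particular to the 10.

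**Figure D3:**
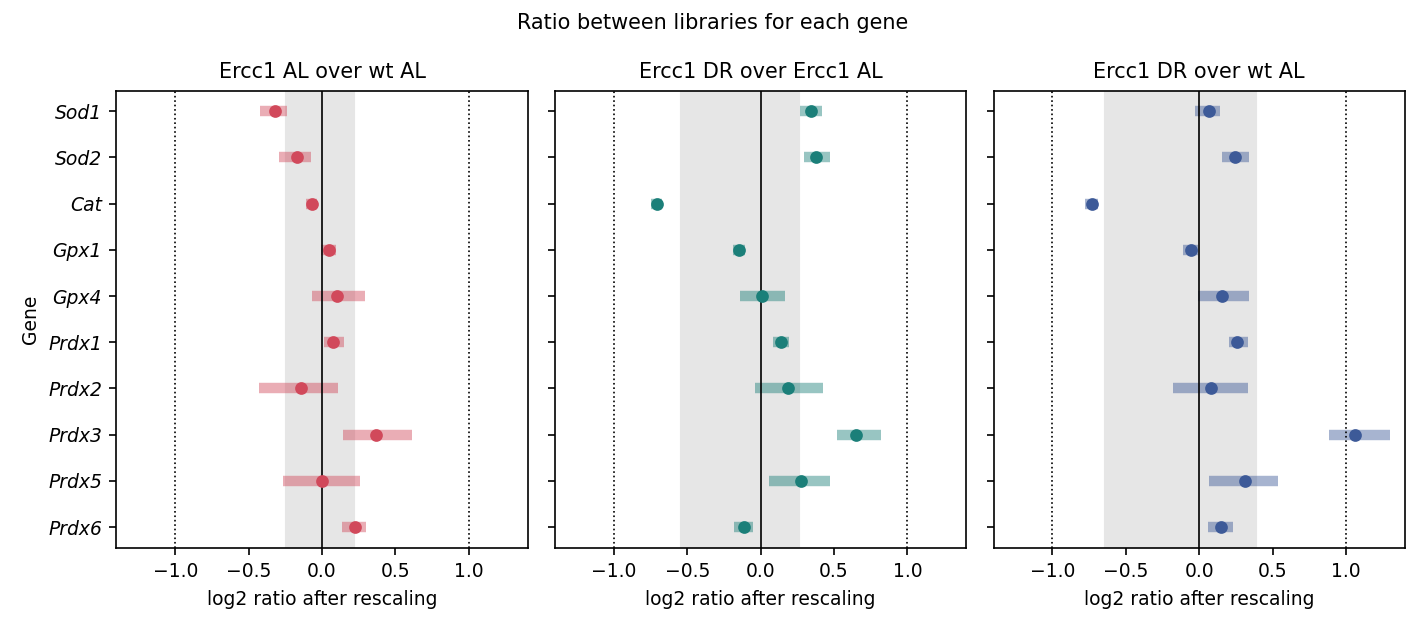
Log2 ratio after rescaling (horizontal axis) for each of the 10 genes in Ercc1 AL over wt AL, Ercc1 DR over Ercc1 AL and Ercc1 DR over wt AL. Points are ratios of FPKM + 1, bars the range between the deposited intervals, grey the middle 50% of all genes and dotted lines the 2-fold mark; Prdx3 lies farthest right in each panel (0.37, 0.65 and 1.06), and Cat farthest left in both panels with Ercc1 DR (-0.71 and -0.73, which turn to 0.06 and 0.01 when the rescaling uses no floor).

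Promoters are shown for the genes at both ends of that range, Prdx3 and Cat, and for Prdx1, whose promoter holds the core of the antioxidant response element, the site of the transcription factor NRF2. RefSeq promoters on GRCm38.p6 were found for 9 of the 10 genes, all but Prdx6, and were searched from 250 bases before to 50 bases after the start on both strands for TGANNNNGC, where N is any base and matches may overlap. The 250 bases before the start are printed 5′ to 3′ on the strand of the gene, with the match in capitals as it reads on that strand.
Prdx3 (chr19:60874539-60874788, minus strand): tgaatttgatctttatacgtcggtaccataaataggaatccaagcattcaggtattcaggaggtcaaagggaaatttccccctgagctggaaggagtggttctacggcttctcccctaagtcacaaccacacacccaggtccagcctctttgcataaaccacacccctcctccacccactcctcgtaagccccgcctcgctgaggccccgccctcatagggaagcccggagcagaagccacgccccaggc
Cat (chr2:103485154-103485403, minus strand): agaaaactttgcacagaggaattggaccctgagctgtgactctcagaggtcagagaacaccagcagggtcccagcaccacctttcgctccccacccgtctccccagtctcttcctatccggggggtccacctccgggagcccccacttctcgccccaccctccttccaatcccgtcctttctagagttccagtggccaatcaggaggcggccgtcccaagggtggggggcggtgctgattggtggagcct
Prdx1 (chr4:116685349-116685598, plus strand): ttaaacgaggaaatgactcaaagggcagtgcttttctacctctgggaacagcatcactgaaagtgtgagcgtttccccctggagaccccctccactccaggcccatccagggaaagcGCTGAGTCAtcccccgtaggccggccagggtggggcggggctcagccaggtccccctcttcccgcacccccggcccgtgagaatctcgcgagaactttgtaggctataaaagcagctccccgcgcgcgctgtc
The table holds 12 promoters for the 9 genes, 4 of them for Gpx4. These letters were found in 3 of the 12, those of Sod1, Prdx1 and Prdx5, or 25%, against 41.3% of all 32851 promoters in the table. Prdx1 held 2 matches, of which the one past the start is not shown. Neither Prdx3 nor Cat held a match in this window.

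The thioredoxin and glutaredoxin system recharges the peroxiredoxins. Of 12 measured genes, after rescaling, 1 was at least 2-fold higher and none lower in Ercc1 DR over Ercc1 AL, none higher and 2 lower in Ercc1 AL over wt AL, and 2 higher and 2 lower in Ercc1 DR over wt AL. Among all genes 3.12% were higher and 12.0% lower in the first comparison. In the second these shares were 2.35% and 4.90%, and in the third 6.02% and 16.4%. The counts in this and the other short lists were not tested against these shares. Srxn1, which repairs overoxidised peroxiredoxins, was at 8.47 FPKM in Ercc1 DR, 2.72 FPKM in Ercc1 AL and 1.52 FPKM in wt AL, and its log2 ratio was 1.08 for Ercc1 DR over Ercc1 AL. It and Glrx3 were the higher genes of Ercc1 DR over wt AL. Txnip, an inhibitor of thioredoxin, was at 6.49 FPKM in Ercc1 DR, 4.12 FPKM in Ercc1 AL and 8.41 FPKM in wt AL, highest in the wildtype. It and Txnrd3, a thioredoxin reductase named after its values were seen, were the lower genes in both comparisons with wt AL. Glrx3, a glutaredoxin family protein, was at 13.4 FPKM in Ercc1 DR, 8.68 FPKM in Ercc1 AL and 3.35 FPKM in wt AL, and Txnl1 at 15.9, 7.36 and 4.55 FPKM in that order. Txn2, the mitochondrial thioredoxin that serves PRDX3, was added to those named by size after its values were seen. It was at 58.1 FPKM in Ercc1 DR, 29.4 FPKM in Ercc1 AL and 22.1 FPKM in wt AL, with a log2 ratio of 0.63 for Ercc1 DR over Ercc1 AL, close to the 0.65 of Prdx3, and -0.08 for Ercc1 AL over wt AL, unlike the 0.37 of Prdx3.

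Genes for glutathione supply, 11 of them measured, had 1 gene at least 2-fold higher and 1 lower in Ercc1 DR over Ercc1 AL, none either way in Ercc1 AL over wt AL, and 1 higher and 1 lower in Ercc1 DR over wt AL. The higher gene was Cth, which makes cysteine from cystathionine, at 225 FPKM in Ercc1 DR, 33.2 FPKM in Ercc1 AL and 12.7 FPKM in wt AL, and the lower one Ggt1, an enzyme of glutathione breakdown named after its values were seen, at 1.25, 3.79 and 3.80 FPKM. Gclc, the catalytic subunit of the first enzyme of glutathione synthesis, was at 23.7, 16.4 and 8.94 FPKM in the order Ercc1 DR, Ercc1 AL and wt AL, and Gss, the next enzyme, at 9.15, 4.46 and 3.68 FPKM. Neither passed the 2-fold mark in any comparison after rescaling. The 10 measured genes for NADPH supply had none at least 2-fold higher in any comparison and 1 lower, Me1, in both comparisons with the wildtype. Beside both lists, 3.12% of all genes were higher and 12.0% lower in Ercc1 DR over Ercc1 AL. These shares were 2.35% and 4.90% in Ercc1 AL over wt AL, and 6.02% and 16.4% in Ercc1 DR over wt AL. Me1, the cytosolic malic enzyme, was at 16.2 FPKM in Ercc1 DR, 11.2 FPKM in Ercc1 AL and 36.6 FPKM in wt AL.

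The list for selenoprotein synthesis, on which Gpx1 and Gpx4 depend, had 12 measured genes. It also held genes that carry or bind selenium and are no part of the synthesis itself. None passed the 2-fold mark in Ercc1 DR over Ercc1 AL, 1 (Selenbp1) was higher in Ercc1 AL over wt AL, and 2 (Sephs2 and Sepp1) were higher in Ercc1 DR over wt AL. Among all genes 3.12%, 2.35% and 6.02% were higher in these comparisons in that order, and 12.0%, 4.90% and 16.4% were lower. Sephs2, which makes the selenium donor, was at 170 FPKM in Ercc1 DR, 99.5 FPKM in Ercc1 AL and 39.7 FPKM in wt AL. Sepp1, the selenium carrier of plasma made in liver, was at 1468, 872 and 422 FPKM in that order. Selenbp1, a selenium-binding protein outside the synthesis, was at 44.3 FPKM in Ercc1 DR, 42.5 FPKM in Ercc1 AL and 13.7 FPKM in wt AL, high in both mutants. For Sephs2 the log2 ratio of Ercc1 DR over wt AL was 1.30 and for Sepp1 1.02, beside 0.15 for Gpx4 and -0.06 for Gpx1.

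Peroxisomal oxidases make the hydrogen peroxide that catalase removes. Of 12 measured genes in this list 2 passed the 2-fold mark upwards and none downwards in Ercc1 DR over Ercc1 AL, and 1 (Agxt) was higher and none lower in Ercc1 AL over wt AL. Of 11 measured in Ercc1 DR over wt AL, 2 were higher and none lower, and in both comparisons of Ercc1 DR the higher genes were Acox2 and Agxt. Among all genes 3.12% were higher and 12.0% lower in Ercc1 DR over Ercc1 AL. These shares were 2.35% and 4.90% in Ercc1 AL over wt AL, and 6.02% and 16.4% in Ercc1 DR over wt AL. Acox2, the oxidase for branched chains and bile acid side chains, was at 33.2 FPKM in Ercc1 DR, 8.71 FPKM in Ercc1 AL and 3.07 FPKM in wt AL. Agxt, which takes glyoxylate further and makes no peroxide itself, was at 67.4, 21.8 and 5.41 FPKM in that order. Hao1, the glycolate oxidase, had the order of Cat, with 39.6 FPKM in Ercc1 DR, 52.0 FPKM in Ercc1 AL and 28.4 FPKM in wt AL and a log2 ratio of -0.71 for Ercc1 DR over Ercc1 AL, as for Cat. In the other comparisons they differed, with Hao1 at 0.37 and Cat at -0.07 for Ercc1 AL over wt AL, and Hao1 at -0.30 and Cat at -0.73 for Ercc1 DR over wt AL. Uox, the urate oxidase, differed from both, with 310.2 FPKM in Ercc1 DR, 164 FPKM in Ercc1 AL and 194 FPKM in wt AL. Of the peroxins that assemble the organelle, 14 of which were measured, none was at least 2-fold higher in any comparison, and 1, Pex6, was lower in both comparisons of Ercc1 DR, at 6.14 FPKM against 13.6 FPKM in Ercc1 AL and 11.2 FPKM in wt AL. The share of all genes lower was 12.0% in Ercc1 DR over Ercc1 AL and 16.4% in Ercc1 DR over wt AL.

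**Figure D4:**
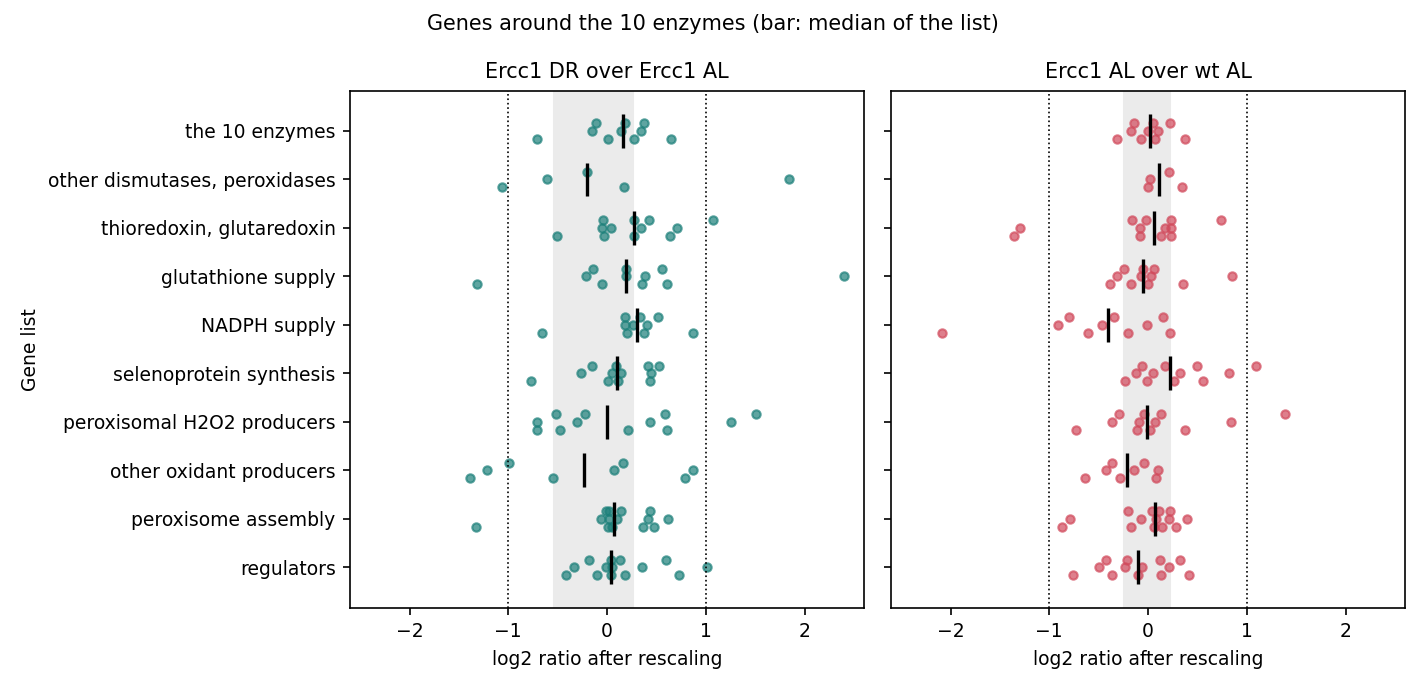
Log2 ratio after rescaling (horizontal axis) of each measured gene in the 10 enzymes and in 9 lists around them, for Ercc1 DR over Ercc1 AL (left) and Ercc1 AL over wt AL (right); black bars are list medians, grey the middle 50% of all genes, dotted lines the 2-fold mark. The 10 enzymes lie between -0.71 and 0.65 on the left and between -0.32 and 0.37 on the right, and no point of theirs passes the 2-fold mark.

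Other enzymes of the same families were mostly low in liver. Of the 10 listed, Prdx4, the peroxiredoxin of the endoplasmic reticulum, was at 29.7 FPKM in Ercc1 DR, 20.7 FPKM in Ercc1 AL and 14.6 FPKM in wt AL, and Ccs, the copper chaperone of SOD1, at 15.8, 14.5 and 10.3 FPKM. After rescaling Ccs was at -0.20 for Ercc1 DR over Ercc1 AL, 0.003 for Ercc1 AL over wt AL and -0.16 for Ercc1 DR over wt AL. Gpx6 was at 6.94 FPKM in Ercc1 DR, 0.89 FPKM in Ercc1 AL and 0.52 FPKM in wt AL, and was the 1 gene at least 2-fold higher in Ercc1 DR over Ercc1 AL (log2 ratio 1.85) and in Ercc1 DR over wt AL (1.90). Gpx3, chosen after its values were seen, was the 1 gene lower in Ercc1 DR over Ercc1 AL, at 0.96 against 2.55 FPKM. None of the 4 genes measured in Ercc1 AL over wt AL passed the mark, and Gpx6 was not among these. Measured were 5 genes in Ercc1 DR over Ercc1 AL and 4 in Ercc1 DR over wt AL. Among all genes 3.12% were higher and 12.0% lower in Ercc1 DR over Ercc1 AL, and 6.02% and 16.4% in Ercc1 DR over wt AL. The other 6 listed genes, not named here, stayed below 2 FPKM in every library.

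Genes whose ratios to the wildtype were most like the median of the 10 were sought among the 219 official symbols with at least 50 FPKM in all 3 libraries, by distance over the log2 ratios of Ercc1 AL and Ercc1 DR to wt AL. They were Ptpmt1 (a mitochondrial phosphatase), Fn1 (fibronectin), Pzp (a plasma protease inhibitor), Sord (sorbitol dehydrogenase) and Itm2b (a membrane protein), at distances between 0.07 and 0.12. In all, 13 of the 219 genes lay within 0.2 of that median, which no single gene among the 10 need follow.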

How the data were processed

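Total RNA of mouse liver, depleted of ribosomal RNA, was sequenced by a TruSeq protocol, per the labels' protocols. The authors deposited 1 table of FPKM values per library, with a lower and an upper bound and a status code for each row, per the file headers. Per the submitters' processing notes the build was mm10, and which tool and annotation gave the values, and whether strand was used, is not given in the sources used here. Rows with the status HIDATA or FAIL (56 to 96 a library) were treated as missing, and a symbol found in several rows (754 rows) was represented by its row of highest mean FPKM. The tables hold no counts, so precision was read from the deposited intervals. Their half-width for the 10 genes was 1.47% to 7.53% of the midpoint in Ercc1 DR, 1.11% to 8.35% in Ercc1 AL and 1.56% to 10.2% in wt AL, which covers counting error only.

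Libraries were grouped by genotype and diet in their labels. Log2 ratios of FPKM + 1 were taken over genes with at least 1 FPKM in either library, after the median log2 FPKM ratio had been set to 0. Named beside the 10 genes were, from each of 9 lists, up to 4 genes with the largest absolute ratio among those with at least 5 FPKM in any library, and 5 genes of like pattern. The members and lists were chosen with earlier results of these data known. Alternatives changed the scaling, the pseudocount, the floor, the fold mark and the measure. The rescaling was tried on simulated data with as many genes raised as lowered. Such a trial does not show how it fares where more genes are lower than higher. Protein sequences were not used here. Python 3.11.15, numpy 2.4.6, pandas 2.3.3 and matplotlib 3.10.9 were used.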

Additional observations from a re-analysis of the deposited data

How the results depend on the processing

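No paired analysis was possible because each group has 1 library, and for the same reason no library could be left out. The median of the 10 genes depended on the scaling. For Ercc1 DR over Ercc1 AL it was 0.16, against 0.48 as deposited and 0.91 without a floor on low values. For Ercc1 AL over wt AL it was 0.02, against 0.50 as deposited and 0.19 with libraries scaled by their sums without the 100 most abundant genes. For Ercc1 DR over wt AL it was 0.15, against 0.91 as deposited and 0.87 without a floor. The count of genes at least 2-fold higher in Ercc1 DR over Ercc1 AL was 0, against 4 without a floor and 1 at a 1.5-fold mark, and the count of lower genes 0, against 1 at 1.5-fold. In Ercc1 DR over wt AL 1 gene was higher, against 3 as deposited, 0 with the median over official symbols and 2 without a floor, and 0 were lower, against 1 at 1.5-fold. The setting without a floor lets genes near 0 set the median, which moved the shift of Ercc1 DR over Ercc1 AL to -0.44, against 0.33. As deposited, the lists around the 10 genes had more genes at least 2-fold higher in Ercc1 DR over wt AL, 6 against 2 for thioredoxin, 6 against 2 for selenoprotein synthesis, 5 against 1 for glutathione supply, 5 against 0 for peroxins, 3 against 0 for NADPH supply and for regulators, 1 against 0 for other oxidant producers and 3 against 2 for peroxisomal oxidases. In Ercc1 AL over wt AL the higher counts were 3 against 1 for selenoprotein synthesis, 2 against 1 for peroxisomal oxidases and 1 against 0 for thioredoxin and for glutathione supply, and in Ercc1 DR over Ercc1 AL 2 against 1 for thioredoxin, 2 against 0 for other oxidant producers and 1 against 0 for NADPH supply. The share of all genes past the mark was computed for the rescaled 2-fold counts only, so counts under the other settings have no background. As deposited, the median over genes with at least 1 FPKM in either library was itself above 0. It was 0.50 for Ercc1 DR over wt AL, 0.34 for Ercc1 AL over wt AL and 0.17 for Ercc1 DR over Ercc1 AL. Lower counts shrank as deposited. In Ercc1 DR over wt AL they were 0 against 1 for peroxins (Pex6) and regulators (Bach1) and 1 against 2 for other oxidant producers and thioredoxin, in Ercc1 DR over Ercc1 AL 0 against 1 for other peroxidases (Gpx3) and 1 against 2 for other oxidant producers, and in Ercc1 AL over wt AL 1 against 2 for thioredoxin.

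Of the 30 ratios of single genes, the sign changed in 8 as deposited, 5 without a floor, 4 with scaling by sums, 2 with official symbols, 1 with interval midpoints and 0 with other pseudocounts or a floor of 5 FPKM. The interval half-width reaches 10.2% (Prdx2 in wt AL), so differences of that size between low genes were not detectable at this depth.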

Other observations

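Other oxidant producers and the regulators of these enzymes were also read. Of 8 measured oxidant producers outside the peroxisome, after rescaling, none was at least 2-fold higher in any comparison and 2 were lower in Ercc1 DR over Ercc1 AL and in Ercc1 DR over wt AL, namely Cybb and Aox3. Among all genes 12.0% were lower in Ercc1 DR over Ercc1 AL and 16.4% in Ercc1 DR over wt AL. Cybb, the membrane subunit of the phagocyte NADPH oxidase, was at 2.07 FPKM in Ercc1 DR, 5.75 FPKM in Ercc1 AL and 5.80 FPKM in wt AL, beside summed macrophage markers of 14.1, 21.0 and 16.4 FPKM, whose part in the Cybb values was not tested. Aox3, an aldehyde oxidase of liver, was at 13.7 FPKM in Ercc1 DR, 26.6 FPKM in Ercc1 AL and 17.6 FPKM in wt AL, highest in Ercc1 AL, as Cat was. Maob, the mitochondrial monoamine oxidase B, was highest under diet restriction, with 20.9, 8.68 and 10.1 FPKM in that order.

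Of the regulators, 1 of 14 measured was at least 2-fold higher in Ercc1 DR over Ercc1 AL, Ppargc1a, a coactivator of mitochondrial genes, at 3.20 FPKM in Ercc1 DR, 0.81 FPKM in Ercc1 AL and 0.59 FPKM in wt AL. It was named after its values were seen. Among all genes 3.12% were higher and 12.0% lower in Ercc1 DR over Ercc1 AL. These shares were 2.35% and 4.90% in Ercc1 AL over wt AL, and 6.02% and 16.4% in Ercc1 DR over wt AL. None of 13 passed the mark in Ercc1 AL over wt AL, and 1 of 14 was lower in Ercc1 DR over wt AL, Bach1, a repressor at antioxidant response elements that was also named afterwards, at 2.81 FPKM against 4.24 FPKM. Nfe2l2, which encodes NRF2, was at 15.0 FPKM in Ercc1 DR, 13.6 FPKM in Ercc1 AL and 7.58 FPKM in wt AL, and was named for comparison with the promoters. After rescaling its log2 ratio was -0.18 for Ercc1 DR over Ercc1 AL, 0.32 for Ercc1 AL over wt AL and 0.19 for Ercc1 DR over wt AL. Among the genes named by size, Foxo1 was at 6.21, 2.62 and 2.65 FPKM, Sirt3, the mitochondrial deacetylase, at 11.3, 6.82 and 5.28 FPKM, Ppara at 23.1, 17.9 and 9.34 FPKM, and Park7 at 56.1, 29.1 and 24.2 FPKM, in the order Ercc1 DR, Ercc1 AL and wt AL. For Ercc1 DR over Ercc1 AL the rescaled log2 ratio was 0.73 for Foxo1, 0.35 for Sirt3, 0.04 for Ppara and 0.60 for Park7.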
